A study of Caenorhabditis elegans with 2 samples.

Results

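The genes described here are 40 pan-neuronal and synaptic vesicle genes of Caenorhabditis elegans, taken as a fixed list by name, of 19973 protein-coding genes annotated on the autosomes and X. The values are ChIP-seq peaks (DNA pulled down with a protein and sequenced) for CEH-31, a Bar-class homeodomain protein. The 2 biological replicates, which are the only group, were whole hermaphrodite late embryos taken 5 h after synchronization by egg bleaching. All animals were of strain OP370, with the allele unc-119(tm4063) and the integrated transgene wgIs370, which stably expresses CEH-31 with a C-terminal GFP-FLAG tag, and the pull-down used an antibody against GFP. The tagged protein comes from a transgene, and the peaks are from all tissues of the embryo together, so a peak cannot be placed in neurons or in other cells. No RNA was measured, so whether these genes were expressed in the samples is not known here. Whether the listed genes are used only in neurons was not examined, so the shares below cannot be read as those of neuron-specific genes.

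Pan-neuronal genes are switched on in nearly every neuron, whatever its transmitter. Many of them encode parts of one cycle: vesicles are carried down the axon by motor proteins, dock and fuse at the active zone through SNARE proteins, and are then retrieved by clathrin-dependent endocytosis. In C. elegans many of these genes were found as unc (uncoordinated) mutants, and their regulatory DNA is known to be redundant, with input from homeodomain proteins of the CUT class. For each gene, summits were collected in introns and around the annotated start, over 2000 bp on its upstream side and 500 bp on its downstream side. For many C. elegans genes the annotated start is a trans-splice site rather than the place where transcription begins.

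The reference sequence around 5 of the stronger summits within 1000 bp upstream is given first, so that the positions below can be read against it. The stronger nsf-1 and unc-14 summits are described below without sequence. The sequences run 100 bp to either side of the summit, shortened where a coding gene's exon begins, on the strand of the gene and 5′ to 3′. They come from the RefSeq copy of WBcel235 (ce11). Capitals mark 4 cores wherever they occur on either strand: TAATTG and TAAACG, known for Bar-class homeodomains, TAATTA, a general homeodomain core, and ATCGAT, known for CUT-class homeodomains.
unc-76 (chrV:15071370-15071570, plus strand): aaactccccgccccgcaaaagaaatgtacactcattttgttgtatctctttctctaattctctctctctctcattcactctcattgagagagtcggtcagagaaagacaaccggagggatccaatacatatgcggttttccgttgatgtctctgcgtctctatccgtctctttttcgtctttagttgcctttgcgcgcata
syd-2 (chrX:10555567-10555767, minus strand): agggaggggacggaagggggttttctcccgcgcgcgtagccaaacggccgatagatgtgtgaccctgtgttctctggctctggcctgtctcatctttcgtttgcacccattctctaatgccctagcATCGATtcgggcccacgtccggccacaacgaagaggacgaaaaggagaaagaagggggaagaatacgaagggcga
rgef-1 (chrV:9561915-9562115, minus strand): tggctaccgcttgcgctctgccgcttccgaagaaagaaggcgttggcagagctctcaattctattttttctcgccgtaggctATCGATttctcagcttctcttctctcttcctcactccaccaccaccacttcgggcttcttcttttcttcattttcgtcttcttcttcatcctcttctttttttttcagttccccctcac
unc-16 (chrIII:9546076-9546257, plus strand): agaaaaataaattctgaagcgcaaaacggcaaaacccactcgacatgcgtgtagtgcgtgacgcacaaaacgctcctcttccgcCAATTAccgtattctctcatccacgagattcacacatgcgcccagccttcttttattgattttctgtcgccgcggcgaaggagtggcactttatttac
ehs-1 (chrII:5819788-5819988, plus strand): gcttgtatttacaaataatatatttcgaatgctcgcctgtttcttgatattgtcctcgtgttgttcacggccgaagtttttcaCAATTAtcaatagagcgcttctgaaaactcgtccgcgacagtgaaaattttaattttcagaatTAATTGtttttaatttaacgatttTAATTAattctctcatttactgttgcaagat
The syd-2 and rgef-1 windows each hold 1 ATCGAT, the ehs-1 window 2 TAATTG and 1 TAATTA, the unc-16 window 1 TAATTG, and the unc-76 window none of the 4.

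Peaks were common at these genes. An optimal summit, that is, one the authors kept at their threshold of the irreproducible discovery rate (IDR), lay within 1000 bp upstream of 17 of the 40 genes (42.5%), against 10.9% of all protein-coding genes. Another 10 genes had one between 1000 and 2000 bp upstream (25%, all genes 4.24%) and none within the 1000 bp (all genes 3.61%). Introns held an optimal summit in 10 of the 40 (25%, against 3.63% of all genes with an intron). In the whole search area 32 of the 40 genes had an optimal summit (80%, against 17.7% of all), 45 summits in total. In the window around the start 27 genes had one (67.5%, all genes 15.3%). With only the optimal peaks at or above the median signal, 8 members had a summit within 1000 bp (all genes 6.58%) and 4 had one in an intron (all genes 1.79%). The list was chosen with results of these data known, there is 1 group of 2 replicates and the files hold no read counts, so these shares are a description and carry no test.

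**Figure D1:**
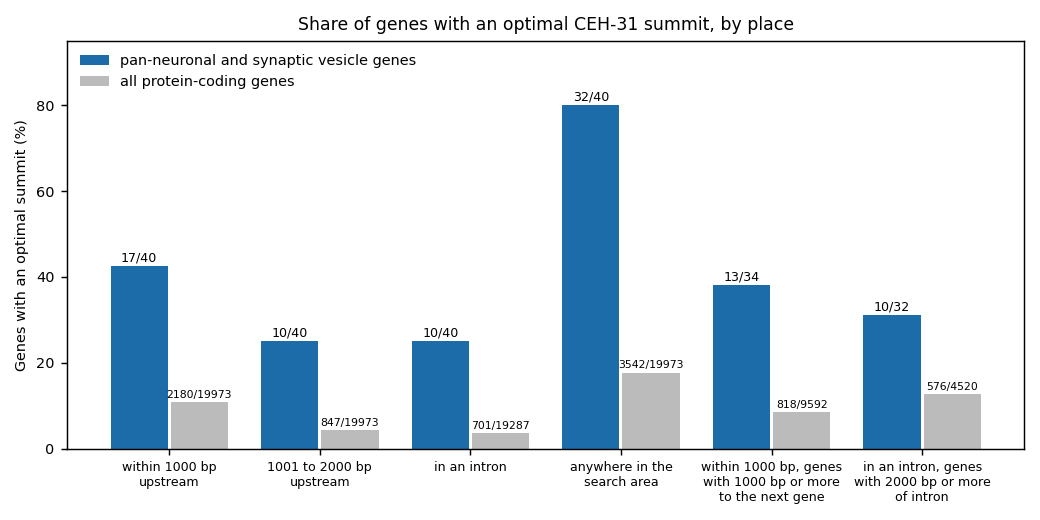
Share of genes (%, y axis from 0) with an optimal CEH-31 summit in 6 settings (x axis), for the 40 pan-neuronal and synaptic vesicle genes (blue) and all protein-coding genes (grey), with counts above the bars. The blue bar is the higher one in each setting, for example 25% against 3.63% for introns and 80% against 17.7% for the whole search area.

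The genes differ in architecture from the rest of the genome. Their median length was 6390 bp, against 2027 bp for all protein-coding genes, their introns summed to a median of 3585 bp against 722 bp, and the gap to the next coding gene upstream had a median of 3347 bp against 936 bp. The part of gene length and spacing in the shares was not tested, but some of the shares can be given with these limited. Among genes at least 1000 bp from the next gene, 13 of 34 members had an optimal summit within 1000 bp (38.2%, all such genes 8.53%). Of the same 34, 10 had one between 1000 and 2000 bp upstream and none within the 1000 bp (29.4%, all such genes 4.11%). Among genes with at least 2000 bp of intron, 10 of 32 members had an intronic summit (31.2%, all such genes 12.7%). Per length, member introns held 15 optimal summits in 201.6 kb, or 7.44 per 100 kb, against 2.79 per 100 kb over all genes. With the optimal peaks at or above the median signal alone, these were 1.98 and 1.21. On X 3 of 5 members had a summit within 1000 bp (all X genes 11.2%).

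The median signal of the peaks was close to that of the whole list. Signal here is the score that the authors' peak caller gave each peak, on a scale that is not stated, and it is compared only within a list. The 18 member summits within 1000 bp upstream had a median pooled signal of 161, from 106 to 625, against a median of 167 over the 1695 optimal summits within 1000 bp upstream of any protein-coding gene. The 27 other member summits had a median of 143, and all optimal peaks 149. Of the 18, 4 were among the strongest 10% of the optimal list. All 45 member summits had a partner within 200 bp in the peak list of each replicate, as did 99.8% of all optimal summits. Of the 45, 33 were within the 3697 strongest peaks of both (73.3%, all optimal summits 78.2%), 3697 being the size of the optimal list. A further 11 were within it in 1 replicate, and 1, in a syd-1 intron, in neither.

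**Figure D2:**
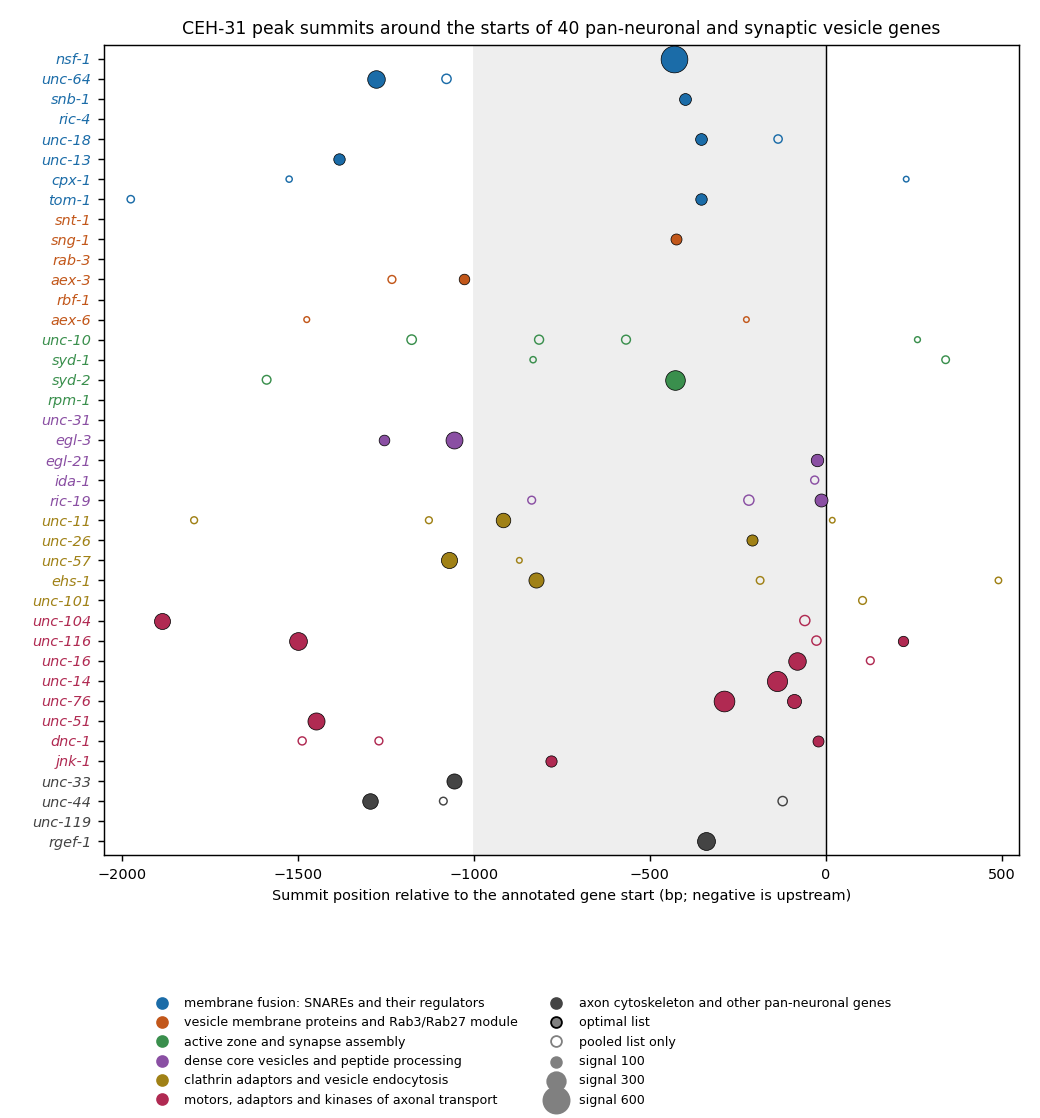
Position of each summit relative to the annotated gene start (x axis, bp, negative upstream) for the 40 genes (rows, coloured by role), with symbol area proportional to pooled signal. Filled symbols are in the optimal list, open ones in the pooled list only, and the grey band is the 1000 bp upstream that holds filled symbols for 17 genes. For another 10 genes, unc-64 and unc-44 among them, the filled symbols upstream of the start all lie farther out than the band.

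Of the 8 genes of membrane fusion, 4 had an optimal summit within 1000 bp upstream (all genes 10.9%). Another 2 had one between 1000 and 2000 bp upstream and none within the 1000 bp (all genes 3.61%). The strongest of all members was at nsf-1, which encodes the ATPase that takes spent SNARE complexes apart. Its summit, 432 bp upstream (I, 7772663), had a signal of 625 in the pooled list (rank 45), 294 in replicate 1 (rank 52) and 335 in replicate 2 (rank 42). This summit is also within 1000 bp upstream of its neighbour adr-1, of the family of RNA-editing adenosine deaminase genes, although nsf-1 has the nearer start. A weaker summit in an nsf-1 intron, 678 bp into the gene, had a pooled signal of 103.

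The other fusion genes had weaker peaks. The synaptobrevin gene snb-1, which encodes the vesicle's own SNARE, had a summit 400 bp upstream (V, 6656901) with a signal of 123, and 61.4 in each replicate. At unc-18, whose product binds syntaxin, the summit 355 bp upstream (X, 7682541) had a signal of 121, with 52.5 in replicate 1 and 66.0 in replicate 2. The tomosyn gene tom-1, a brake on SNARE assembly, had one 354 bp upstream (I, 5545764) with a signal of 115.8, and 57.7 and 60.3 in replicates 1 and 2. These 3 summits lay 354 to 400 bp upstream and ranked between 2372 and 3046 in the replicates.

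The syntaxin gene unc-64 and the priming factor gene unc-13 had their optimal summits beyond 1000 bp. That of unc-64, 1277 bp upstream (III, 13275981), had a signal of 270.0, with 128 in replicate 1 and 142 in replicate 2. The unc-13 summit, 1381 bp upstream (I, 7421404), had a signal of 114.9, with 51.3 and 62.3. Both genes have long upstream gaps, 8374 and 14273 bp, and no other protein-coding start was nearer to either summit. The plasma membrane SNARE gene ric-4 and the complexin gene cpx-1 had no optimal summit. Their strongest pooled ones were 57.7, in a ric-4 intron, and 33.8, 1524 bp upstream of cpx-1.

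Of the 6 vesicle membrane and Rab genes, 4 had an optimal summit in the search area (all genes 17.7%), and 3 of their summits were in introns. The synaptogyrin gene sng-1, for a vesicle membrane protein, was the one gene of the 6 with an optimal summit within 1000 bp (all genes 10.9%), 426 bp upstream (X, 7327175), with a signal of 106. The replicates placed it differently, at 81.4 (rank 1551) in replicate 1 and 33.2 (rank 6487) in replicate 2, so among the 3697 strongest peaks it is found in replicate 1 and not in replicate 2. The exchange factor gene aex-3, which acts on Rab GTPases, had a summit just outside, 1026 bp upstream (X, 760760), with a signal of 98.3. Its replicate 2 partner lies nearer to another pooled summit, 1232 bp upstream.

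At rab-3, which encodes the Rab GTPase of synaptic vesicles, both optimal summits were intronic. The stronger (II, 5725310) had a signal of 233, with 110.2 in replicate 1 and 118.5 in replicate 2. It lay 2543 bp downstream of the annotated gene start but 580 bp upstream of an annotated internal transcript start. The other, 3925 bp into the gene, had a signal of 107. The rabphilin gene rbf-1, whose product binds Rab proteins on vesicles, showed the same arrangement. Its only optimal summit (III, 6695458) was 19698 bp into the gene and 115 bp upstream of an internal start, with a signal of 156, and 86.3 and 76.5 in replicates 1 and 2. The synaptotagmin gene snt-1, for the calcium sensor of release, and the Rab27 gene aex-6 had no optimal summit, and their strongest pooled ones had signals of 31.96 and 28.9.

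The reference sequence around intronic summits within 1000 bp upstream of an internal start is shown because these positions are outside a window drawn on the gene start alone. Strand, length, source and capitals are as above, and the third is the unc-76 summit described below.
rab-3 (chrII:5725210-5725410, minus strand): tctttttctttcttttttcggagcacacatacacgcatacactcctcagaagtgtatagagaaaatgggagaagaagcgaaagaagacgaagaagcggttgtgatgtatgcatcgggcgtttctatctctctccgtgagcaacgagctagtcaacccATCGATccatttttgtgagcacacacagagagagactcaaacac
rbf-1 (chrIII:6695358-6695558, plus strand): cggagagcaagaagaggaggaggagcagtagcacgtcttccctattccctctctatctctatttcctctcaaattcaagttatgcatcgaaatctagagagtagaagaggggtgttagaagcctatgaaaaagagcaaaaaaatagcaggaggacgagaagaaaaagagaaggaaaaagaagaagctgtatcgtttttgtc
unc-76 intron (chrV:15072801-15073001, plus strand): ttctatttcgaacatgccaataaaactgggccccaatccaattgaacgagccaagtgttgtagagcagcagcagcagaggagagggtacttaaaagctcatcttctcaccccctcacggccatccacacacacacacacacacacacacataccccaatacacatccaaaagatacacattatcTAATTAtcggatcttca
The rab-3 window holds 1 ATCGAT, that of unc-76 1 TAATTA, and that of rbf-1 none of the 4 cores.

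Of the 4 genes of the active zone and synapse assembly, syd-2 had the strongest peak. It encodes liprin-alpha, a scaffold of the active zone, and its summit 428 bp upstream (X, 10555667) had a signal of 337, with 148 in replicate 1 (rank 460) and 198 in replicate 2 (rank 264). The summit is inside an annotated noncoding RNA, F59F5.9. The synapse assembly gene syd-1 had 2 optimal summits, both intronic, with signals of 207 and 91.5. The stronger one was 1470 bp into the gene (II, 7593442), inside the noncoding RNA F35D2.16, with 104.4 and 106.5 in replicates 1 and 2. The active zone gene unc-10, which encodes RIM, had no optimal summit but 4 in the pooled list, the strongest at 77.8. The ubiquitin ligase gene rpm-1, a regulator of synapse growth, had 1 pooled summit, with a signal of 32.6.

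Dense core vesicles carry neuropeptides, and 4 of their 5 genes had an optimal summit in the search area (all genes 17.7%). At egl-3, for the convertase that cuts neuropeptide precursors, 2 summits lay 1056 and 1255 bp upstream (V, 10174809 and 10175008). The nearer had a signal of 252, with 114.5 in replicate 1 and 137 in replicate 2, and the farther, inside the noncoding RNA C51E3.11, had 99.97. The carboxypeptidase gene egl-21, whose enzyme trims the cut peptides, had a summit 25 bp upstream (IV, 10481869) with a signal of 136, and 62.9 and 73.9 in replicates 1 and 2. The egl-21 summit was thus within 1000 bp upstream, and those of egl-3 were farther out.

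The other dense core vesicle genes were mixed. The gene ric-19, an ICA69 homolog, had a summit 13 bp upstream (I, 3781703) with a signal of 148, also within 1000 bp upstream of pmlr-1, and 78.6 in replicate 1. The nearest replicate 2 peak (83.4) was 173 bp away, and only 32 bp from the ric-19 summit 218 bp upstream. The IA-2 homolog ida-1, for a membrane protein of these vesicles, had 1 in an intron, 5447 bp into the gene, with a signal of 102. It ranked 2841 in replicate 1 and 5094 in replicate 2. The gene unc-31, for the CAPS protein that readies these vesicles for release, had no optimal summit, and the strongest of its 3 pooled ones had a signal of 37.7.

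Among the 5 genes of clathrin adaptors and endocytosis, 3 had an optimal summit within 1000 bp upstream (all genes 10.9%). The EPS15 homolog ehs-1 had one 824 bp upstream (II, 5819888) with a signal of 200.4, with 91.3 in replicate 1 and 109 in replicate 2. The clathrin assembly gene unc-11 had one 916 bp upstream (I, 3806655) with a signal of 185, with 99.5 and 85.3. The synaptojanin gene unc-26, for a lipid phosphatase that helps to uncoat vesicles, had a weaker one 209 bp upstream (IV, 13272725), at 109, with 47.7 and 61.7. For unc-57, which encodes endophilin, the summit was 1069 bp upstream (I, 4674064) with a signal of 228, higher than the other 3. The AP-1 adaptor gene unc-101 had none, and its strongest pooled summit, 105 bp downstream of the start, had a signal of 52.7.

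Every one of the 8 genes of axonal transport had an optimal summit in the search area (all genes 17.7%). The strongest were at unc-76 and unc-14. The FEZ homolog unc-76, which acts in axon outgrowth and transport, had 4 optimal summits, 2 upstream and 2 intronic. The summit 290 bp upstream (V, 15071470) had a signal of 376, with 170.3 in replicate 1 (rank 323) and 209 in replicate 2 (rank 224). The one 90 bp upstream had 174, with rank 2025 in replicate 1 and 5459 in replicate 2, the latter outside the 3697 strongest. Those 1141 and 3293 bp into the gene had 101.5 and 143, the first of them 908 bp upstream of an internal start. At unc-14, which encodes a RUN domain protein, the summit 139 bp upstream (I, 7128385) had a signal of 354, with 176 and 175 in the replicates, ranks 284 and 360.

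Kinesin genes and their cargo adaptors followed. The kinesin-3 gene unc-104, for the motor of synaptic vesicle precursors, had its strongest summit 1885 bp upstream (II, 6993102), with a signal of 225, and 100.4 and 124 in replicates 1 and 2. The summit 59 bp upstream of unc-104 had a pooled signal of 89.8 and was left out of the optimal list, whose lowest signal was 90.5. The kinesin-1 heavy chain gene unc-116 had a summit 1500 bp upstream (III, 8356674) with 276, and 142 and 141 in the replicates. A second, 221 bp downstream in an exon, had 95.01, with rank 2245 in replicate 1 and 9498 in replicate 2. The adaptor gene unc-16, a JIP3 homolog, had one 82 bp upstream (III, 9546176) with 269.8, and 137 and 129. That summit lies in the noncoding RNA ZK1098.13.

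The kinase and dynactin genes of this group had signals from 107 to 255. The ULK kinase gene unc-51, which acts with unc-14 in axon growth, had a summit 1448 bp upstream (V, 20005933) with a signal of 255, and 123 and 135.5 in replicates 1 and 2. The dynactin gene dnc-1, for a cofactor of dynein, had one 21 bp upstream (IV, 10933224), also within 1000 bp upstream of the RNA-processing gene lsm-7, with a signal of 107. It ranked 2230 in replicate 1 and 4436 in replicate 2, outside the 3697 strongest. The kinase gene jnk-1 had one 781 bp upstream (IV, 6956860) with 111, and one in an intron with 139. The intronic one was the stronger of that pair in the pooled list and in both replicates.

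All 4 remaining genes had an optimal summit in the search area (all genes 17.7%). Only that of rgef-1 was within 1000 bp upstream (all genes 10.9%). This Ras exchange factor gene, whose promoter is widely used as a pan-neuronal driver, had a summit 341 bp upstream (V, 9562015) with a signal of 279, with 115.4 in replicate 1 (rank 774) and 165 in replicate 2 (rank 416). The ankyrin gene unc-44, for an anchor of the axon skeleton, had one 1293 bp upstream (IV, 5974264) with 212, and 99.8 and 108.1 in replicates 1 and 2.

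At unc-33, a CRMP homolog that organises axonal microtubules, 4 optimal summits were spread over the gene. One was 1056 bp upstream (IV, 3515830) with a signal of 200.1, and its rank was 2330 in replicate 1 and 657 in replicate 2. The 3 intronic ones, 4213, 5101 and 7902 bp into the gene, had 146, 166 and 132. The one at 5101 bp lies in an exon of another annotated gene, M57.3. The one at 7902 bp ranked 1454 in replicate 1 and 4349 in replicate 2. Another optimal summit (IV, 3519595, signal 141) was in an exon of unc-33, 2709 bp into the gene, and so outside the search area. It was 89 bp upstream of an internal start. The lipid-binding chaperone gene unc-119 had 1 optimal summit, in an intron 2611 bp into the gene (III, 10905252), with 139, and 70.4 and 72.1 in replicates 1 and 2. These animals carry the unc-119(tm4063) allele, and the labels do not say whether the transgene holds unc-119 DNA, so peaks at unc-119 may not come from the chromosomal locus alone.

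**Figure D3:**
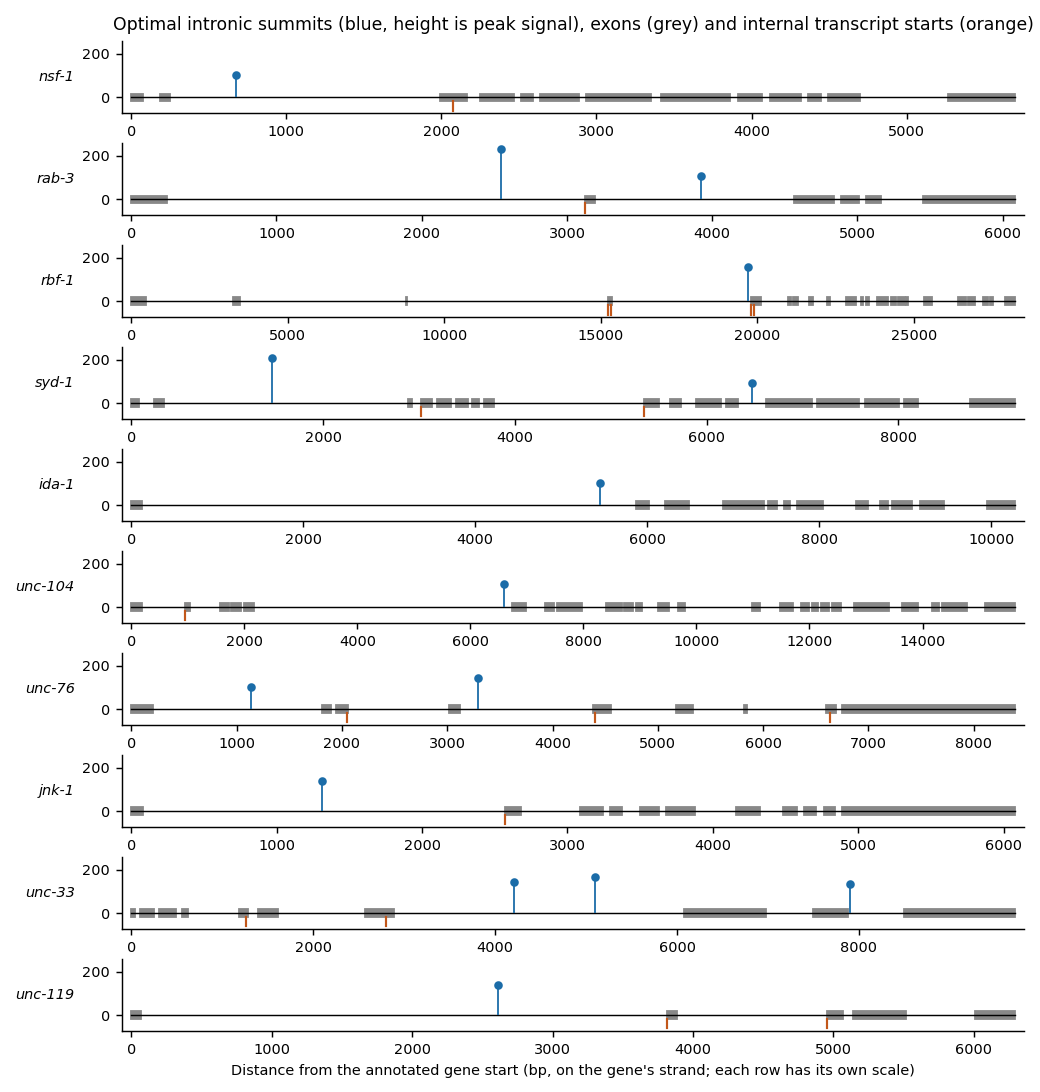
The 10 genes with an optimal summit in an intron, drawn 5′ to 3′ by distance from the annotated start (x axis, bp, own scale per gene), with exons as grey bars, internal transcript starts as orange ticks and each intronic summit as a blue line whose height is its pooled signal (y axis). The stronger rab-3 summit (233) and the rbf-1 summit (156) stand just 5′ of an orange tick, whereas those of ida-1 and unc-104 do not.

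Of the 15 intronic summits, 3 were within 1000 bp upstream of an internal transcript start, those of rab-3, rbf-1 and unc-76. The same share over all optimal intronic summits is not given here, so 3 of 15 cannot be called high or low. For 4 of the 15 another coding gene had the nearest start: damt-1 for the weaker rab-3 summit, F37A4.6 for rbf-1, mks-3 for the weaker syd-1 summit and M57.2 for the last unc-33 summit. When any annotated transcript start counted in place of the gene start, 20 members had an optimal summit within 1000 bp, the 17 above with rab-3, rbf-1 and unc-33 (all genes 12.2%). All 18 summits within 1000 bp upstream had the member as the gene with the nearest start. Counting summits for the nearest gene alone, 17 members kept one, against 7.9% of all genes. The 17 strongest of these summits, 1 per gene, had a median distance of 354 bp from the start, from 13 bp at ric-19 to 916 bp at unc-11.

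**Figure D4:**
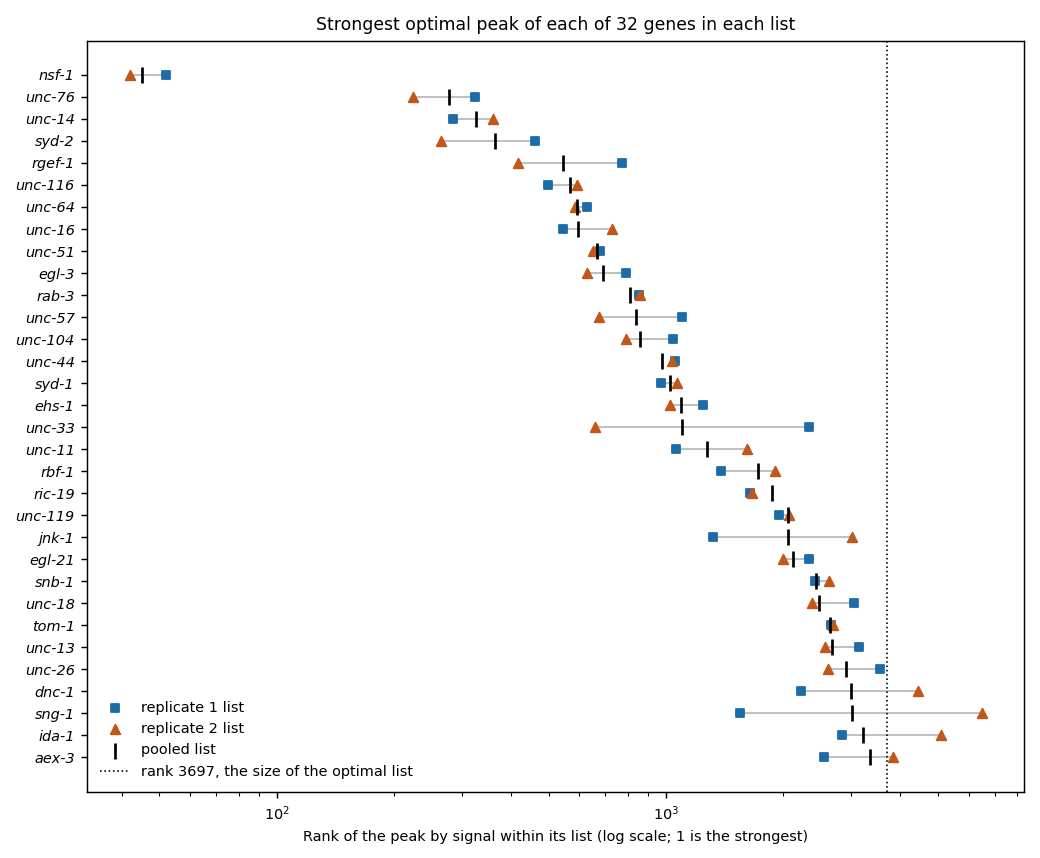
Rank by signal (x axis, log scale, 1 is the strongest) of the strongest optimal peak of each of the 32 genes (rows) in the lists of replicate 1 (squares), replicate 2 (triangles) and the pooled list (bars). Both replicates place nsf-1 first, at ranks 52 and 42, and sng-1 spans the widest range, 1551 and 6487; the dotted line is rank 3697.

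The 8 genes without an optimal summit were ric-4, cpx-1, snt-1, aex-6, unc-10, rpm-1, unc-31 and unc-101. All 8 had at least 1 summit in the relaxed pooled list, which includes background regions, and their strongest signals ran from 28.9 to 77.8. In that list all 40 members had a summit in the search area, against 52% of all genes, and 25 had one within 1000 bp upstream (62.5%, all genes 30.3%). Just inside the authors' threshold were the syd-1 summit of 91.5 and the unc-116 summit of 95.01. Just outside it were a second ric-19 summit, 218 bp upstream (90.2), and the unc-104 summit 59 bp upstream (89.8).

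The sequence around the summits was searched for the cores named above. ATCGAT was chosen for counting after the data had been seen, so its counts are a description. ATCGAT, which reads the same on both strands, occurred within 100 bp of 16 of the 45 member summits (35.6%), at 15 genes. The share was 10.2% over all 3697 optimal summits and 12.4% over the 1695 within 1000 bp upstream of a gene. At positions 1000 bp to either side of the member summits it was 9 of 90 (10.0%), but these positions had a median GC content of 32.1%, against 46.3% at the member summits, and held TAATTG or TAAACG in 22.2%. Within 50 bp of the summit it was 11 of 45 (24.4%), and 4.84% over all optimal summits. TAATTG or TAAACG, searched on both strands, occurred within 100 bp of 5 member summits (11.1%) and of 17.3% of all optimal summits. Within 50 bp it was 3 of 45 (6.67%, all 8.39%), and for the 18 member summits within 1000 bp upstream it was 2 (11.1%, all such summits 6.78%), so the order changed with the window and the set. TAATTA occurred within 100 bp of 4 (8.89%, all 7.93%). Median GC content over all optimal summits was 45.8%. A match describes letters in a window and does not show that a protein is bound.

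The windows with 2 copies of ATCGAT off the first chromosome were those of snb-1 and of the nearer egl-3 summit, shown here because they hold the most. Capitals, strand and source are as above.
snb-1 (chrV:6656801-6657001, minus strand): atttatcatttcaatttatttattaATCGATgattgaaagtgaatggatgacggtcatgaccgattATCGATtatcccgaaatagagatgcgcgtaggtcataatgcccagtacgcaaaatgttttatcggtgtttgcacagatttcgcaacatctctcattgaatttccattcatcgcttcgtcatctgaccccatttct
egl-3 (chrV:10174709-10174909, minus strand): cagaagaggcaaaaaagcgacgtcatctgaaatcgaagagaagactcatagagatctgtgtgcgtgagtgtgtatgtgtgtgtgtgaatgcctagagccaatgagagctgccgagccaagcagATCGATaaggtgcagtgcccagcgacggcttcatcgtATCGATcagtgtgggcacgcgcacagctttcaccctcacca
In egl-21 the core was at the summit itself, 0 bp away, and in rgef-1 16 bp from it. Other members with 1 copy at an upstream summit were syd-2, dnc-1, unc-33 (1056 bp upstream) and unc-104 (1885 bp upstream). At an intronic summit 1 copy was found in syd-1 (1470 bp into the gene), unc-76 (3293 bp), jnk-1 (1314 bp) and rab-3, the last at both of its intronic summits. The other 3 of the 15 genes are among those given without sequence here.

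Other genes of the same pathways were counted from 6 further lists of 99 genes in all. Of these, 32 had an optimal summit within 1000 bp upstream (32.3%, all genes 10.9%). Endocytosis genes had 6 of 10, led by the AP-2 adaptor genes dpy-23 (signal 377, 310 bp upstream) and apa-2 (322, 718 bp) and by apb-1, a shared AP-1 and AP-2 subunit (275, 215 bp). Other dense core vesicle genes had 6 of 12, led by the Rab2 gene unc-108 (246), hid-1 (212) and sbt-1 (196). Axonal transport genes had 7 of 16, led by the kinesin light chain gene klc-1 (410), sam-4 (339), whose summit is nearer to zyg-1, and the dynein light chain gene dlc-1 (214).

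Genes of the active zone and of release control had 10 of 27, led by the G protein alpha subunit gene gsa-1 (426), the RGS gene eat-16 (372) and the Gq gene egl-30 (332). A list drawn up as paralogs of the SNARE, synaptotagmin and complexin genes had 3 of 16, snt-4 (167), snt-2 (167) and snap-1 (132). The last encodes an attachment protein of the nsf-1 ATPase and is not itself a paralog of these genes. Genes that mark a transmitter type were counted last. None of 18 genes of transmitter synthesis and transport had an optimal summit within 1000 bp. As a rough bound, 3 divided by the number of genes, which takes genes as independent, this allows a share of up to 16.7%. That range includes the 10.9% of all genes. In the search area 1 of the 18 had one (all genes 17.7%). The difference between lists was not tested. ATCGAT was within 100 bp of 9 of the 33 summits within 1000 bp upstream of these other genes (27.3%).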

How the data were processed

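The authors deposited peak lists of ChIP-seq on tagged CEH-31 in 2 biological replicates. The authors made the peak signal values with their peak caller, per the deposited lists, which also hold a summit offset in bp. Per the text deposited beside the lists, each replicate list and the pooled list hold peaks and background regions called against a control, and the optimal list derives from the replicate and pooled lists at an IDR threshold. The sources used here do not name the aligner, the caller, their versions or the threshold. The optimal list held 3697 peaks, the 3697 of highest signal among 24555 pooled ones. The replicate lists held 21175 and 22471. Peak lists carry no read counts, so depth and its error are unknown.

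Only the ce11 lists were used, with Ensembl release 115 genes (WBcel235) and 1-based coordinates. A gene's start is its outermost annotated 5′ end. An intronic summit is in no exon of any transcript of that gene. Replicate partners are the nearest summits within 200 bp. An internal start is a transcript start over 200 bp into the gene. The main counts are set beside the share of all protein-coding genes, and no test was made. Python 3.11.15 and pandas 2.3.3 were used.

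The members and lists were chosen with earlier results of these data known. All members are named, and of the other lists the 3 strongest. TAATTA and ATCGAT, and the 2 windows with 2 copies of ATCGAT, were added after the files were seen, and no sequence is shown for genes on chromosome I. Alternatives changed the window, the gene start, the strength of peaks, the replicate and the partner and core distances.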

Additional observations from a re-analysis of the deposited data

How the results depend on the processing

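Leaving out a replicate changed the counts of genes little, while intronic summits per length fell. With the 3697 strongest peaks of 1 replicate in place of the optimal list, 16 to 18 members had a summit within 1000 bp upstream (all genes 10.8% to 11%), 24 to 28 had one from 2000 bp upstream to 500 bp downstream (15% to 15.4%), and 9 in either replicate had one in an intron (3.54% to 3.6%). Intronic summits per 100 kb went from 7.44 to 5.95 without replicate 1 (all genes 2.73) and to 5.95 without replicate 2 (all genes 2.76). They were 1.98 with optimal peaks at or above the median signal (all genes 1.21). With peaks at or above the median, the counts were 8 members within 1000 bp (all genes 6.58%), 16 in the wider window (9.09%) and 4 with an intronic summit (1.79%). With every peak of the pooled list 27 had an intronic summit (all genes 19.5%). Windows of 500 bp upstream, and of 1000 bp upstream to 200 bp downstream, gave 14 and 17 members (all genes 8.53% and 11.5%). A partner within 100 bp in both replicates was found for 42 of 45 summits. TAATTG or TAAACG was within 50 bp of 3 of the 45 member summits (6.67%, all optimal summits 8.39%). Within 200 bp it was 11 of 45 (24.4%), below the 33.4% of all optimal summits. ATCGAT was within 50 bp of 11 of the 45 (24.4%, all optimal summits 4.84%). Within 200 bp it was 18 of 45, against 19.6% of all optimal summits. These ATCGAT distances were alternatives chosen after seeing the data. Of the 17 genes with a summit within 1000 bp, sng-1 and dnc-1 had none among the strongest peaks of replicate 2, and all 17 had one in replicate 1.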

Other observations

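Closely spaced summits need care. No 2 summits of the pooled list were closer than 199 bp, and 1710 pairs of neighbours were at most 210 bp apart. The 2 optimal summits upstream of egl-3 and the 2 upstream of unc-76 are pairs of this kind. With summits within 300 bp merged, an alternative chosen after seeing the data, the 45 member summits became 43 sites.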
